A study of Homo sapiens with 21 samples.

Results

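Expression of 33 genes for the peroxisome proliferator-activated receptors (PPARs), their target genes and the oxidation of fatty acids was followed in neuron-like cells exposed to 6 per- and polyfluoroalkyl substances (PFAS). The genes were found by symbol among the 62656 Ensembl genes of the count table, and all 33 had a row. Of these, 32 had enough counts to be tested and FABP7, a brain fatty acid binding protein, did not. No member passed the test for any of the 6 compounds.

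The cells were SH-SY5Y, a human neuroblastoma line, labelled wild type and differentiated for 11 days. The exposed groups received PFOA, PFOS, PFDA, PFDS, 8:2 FTS or 8:2 FTOH at 30 µM for 24 h, with 1% methanol in the final solutions, and the reference cells are labelled Control. The sources used here do not give the methanol content of Control, so exposure and any difference in methanol cannot be told apart. Each of the 7 groups has 3 libraries of ribosome-depleted total RNA, 21 in all, and the labels do not say that these came from separate cultures, so the p-values reflect no more than the spread among these libraries, which could be technical. PFOA and its longer-chain relative PFDA carry a carboxylic acid on a perfluoroalkyl chain, PFOS and its longer-chain relative PFDS a sulfonic acid, and the fluorotelomers 8:2 FTS and 8:2 FTOH a partly fluorinated chain that ends in a sulfonic acid and an alcohol. The series describes the exposure as sub-toxic and its aim as the study of neurotoxic effects.

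PPARs are nuclear receptors that bind fatty acids and related ligands, pair with a retinoid X receptor (RXR) and switch on genes for the uptake, storage and oxidation of fat. Long-chain fatty acids enter mitochondria as carnitine esters and are shortened there in repeated cycles of dehydrogenation, hydration, a second dehydrogenation and thiolysis, while very long and branched chains start in peroxisomes. Neurons rely mainly on glucose and oxidise little fat compared with liver or muscle, where PPAR target genes are best known, and several PFAS can bind PPARs.

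Total counts ran from 7680024 to 30429746 per library, with a median of 14633793, and 13 of the 18 compound libraries lay below the lowest Control library at 22179910. Control replicate 3 and 8:2 FTOH replicate 3, which the authors' normalized table leaves out, had the highest shares of counts on mitochondrial genes, at 6.33% and 6.11%, against a lowest share of 3.37%. Neuronal markers were abundant, with 7 of 8 at a median of at least 1 CPM, a count scaled to the size of its library, and a summed level of 7123 to 9532 CPM in compound libraries and 9155 to 9335 CPM in Control. The exception was TH, the rate-limiting enzyme of catecholamine synthesis, at a median of 0.844 CPM. Glial markers summed to 8.78 to 13.5 CPM in compound libraries and 9.52 to 11.2 CPM in Control, with 4 of 5 at a median of at least 1 CPM. Hepatocyte, adipocyte and muscle markers had 0 of 4 each at a median of 1 CPM, and ALB, SERPINA1, FABP4 and ADIPOQ were at 0 in 17, 21, 21 and 20 of 21 libraries. APOA1, TTR, DES and ACTA1 were at 0 in 12, 14, 20 and 6. The adipocyte markers PLIN1 and LEP and the muscle marker MYH7 were at 0 in 0 libraries, and the muscle marker CKM in 1. Their medians were 0.880, 0.525, 0.541 and 0.572 CPM. The part of these markers, depth and mitochondrial share in the values of the members was not tested. In bulk RNA, fewer cells of a type and less RNA per cell cannot be told apart.

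Levels between genes are compared per length, as CPM per kilobase of exon. By this measure HADHA, ECHS1, HADHB and ACADVL, all enzymes of mitochondrial oxidation, took the first 4 places. Receptors and the carnitine shuttle were spread over the range, with CPT1C, PPARD and CPT1A next at ranks 5, 6 and 7 and RXRA, CPT1B and PPARG at ranks 26, 28 and 30 of 33. PDK4, ACADL, PPARG, ACOT1, CPT1B and ANGPTL4 were each below 1 CPM per kilobase in Control, as was FABP7. Exon length covers every annotated exon base of a gene, 24901 for HSD17B4 and 13774 for ACADM, so ranks and per-length levels depend on the annotation. By CPM alone HSD17B4, at 127 in Control, lay above ACADVL at 105, HADHB at 99.7 and ECHS1 at 40.1. A mean of at least 1 CPM over all libraries was reached by 29 of the 33 members.

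**Figure D1:**
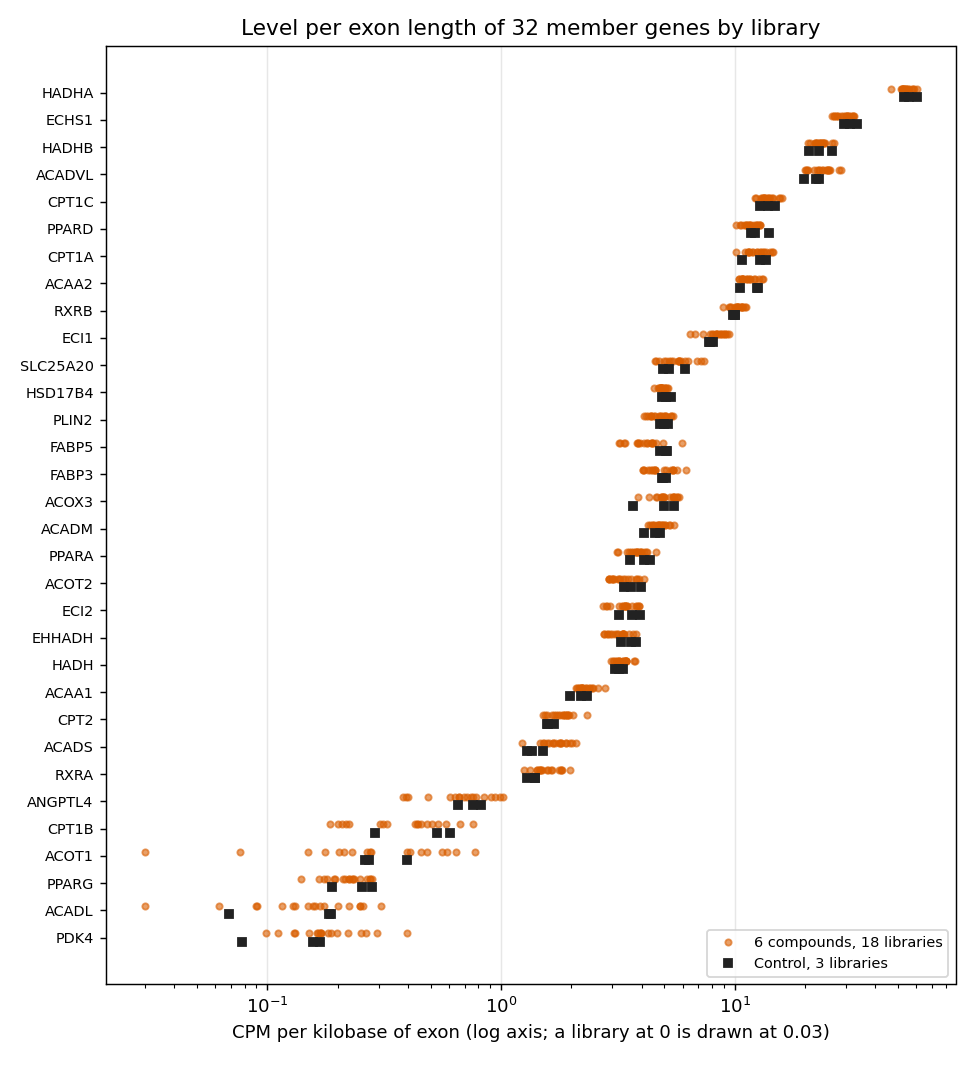
Level of 32 members in every library, in CPM per kilobase of exon on a log axis, with the 18 compound libraries as orange points above the 3 Control libraries as black squares, ordered by the Control mean. HADHA was highest at 56.3 in Control and PDK4 lowest at 0.134, compound and Control points overlap for most members, and FABP7 is not drawn.

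Among the receptors, PPARD, which is widely expressed, was the most abundant PPAR in 21 of 21 libraries. It was at 10.2 to 12.9 CPM per kilobase in compound libraries and 12.7 ± 1.19 in Control (SD, n = 3). PPARA, the main receptor for fatty acid oxidation in liver, was at 3.14 to 4.63 CPM per kilobase in compound libraries and 4.00 ± 0.399 in Control (SD, n = 3). PPARG, the receptor of fat cell differentiation, was at 0.140 to 0.282 CPM per kilobase in compound libraries and 0.242 ± 0.0477 in Control (SD, n = 3). PPARD thus made up 71.0% to 77.3% of the summed per-length level of the PPAR genes over all libraries, PPARA 20.9% to 27.8% and PPARG 0.791% to 1.87%. Of the RXR partners, RXRB made up 84.1% to 89.2% and was above RXRA in 21 of 21 libraries. RXRB shares 361 exon bases with SLC39A7 on the opposite strand, and counting ignored strand, so its level is uncertain.

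Within the carnitine shuttle, CPT1C and CPT1A stood close together. CPT1A makes the acyl-carnitine that enters mitochondria and is the liver form, CPT1C is a brain form that lies in the endoplasmic reticulum and has little such activity, and CPT1B is the muscle form. CPT1C was at 12.2 to 15.97 CPM per kilobase in compound libraries and 13.9 ± 1.05 in Control (SD, n = 3). CPT1A was at 10.1 to 14.6 CPM per kilobase in compound libraries and 12.4 ± 1.49 in Control (SD, n = 3). CPT1C was the higher of the pair in 16 of 21 libraries and CPT1A in 5, so their order does not stand beyond the spread. CPT1B made up 0.712% to 2.74%, and 66.4% of its exon bases are shared with the read-through gene CHKB-CPT1B, so its counts are uncertain.

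**Figure D2:**
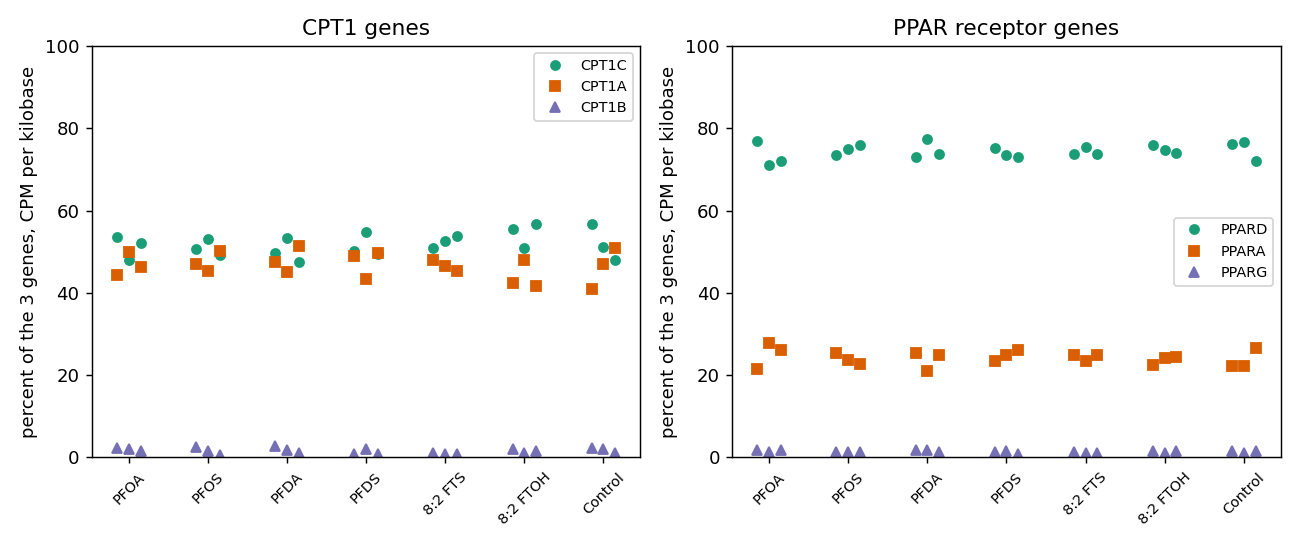
Share of each gene in the summed CPM per kilobase of its family, in percent, for the CPT1 genes (left) and the PPAR genes (right), with 1 point per library and 3 libraries per group. PPARD held 71.0% to 77.3% in all groups, while the CPT1C and CPT1A points cross.

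HADHA and HADHB encode the alpha and beta subunits of the mitochondrial trifunctional protein, which carries out the last steps of each cycle for long chains. HADHA was at 46.95 to 60.3 CPM per kilobase in compound libraries and 56.3 ± 3.70 in Control (SD, n = 3), above 98.0% of tested genes. HADHB was at 20.7 to 26.6 CPM per kilobase in compound libraries and 23.3 ± 2.68 in Control (SD, n = 3). The genes lie head to head on chromosome 2, and their RefSeq promoter windows, from 250 bases before to 50 bases after the start, share 194 bases (chr2:26244689-26244882). Both windows are printed 5′ to 3′ on the strand of their gene (GRCh38.p14), with the shared bases in capitals, because HADHA and HADHB ranked 1 and 3 among the members by level. The HADHA window is chr2:26244583-26244882 on the minus strand, and the HADHB window is chr2:26244689-26244988 on the plus strand.
HADHA: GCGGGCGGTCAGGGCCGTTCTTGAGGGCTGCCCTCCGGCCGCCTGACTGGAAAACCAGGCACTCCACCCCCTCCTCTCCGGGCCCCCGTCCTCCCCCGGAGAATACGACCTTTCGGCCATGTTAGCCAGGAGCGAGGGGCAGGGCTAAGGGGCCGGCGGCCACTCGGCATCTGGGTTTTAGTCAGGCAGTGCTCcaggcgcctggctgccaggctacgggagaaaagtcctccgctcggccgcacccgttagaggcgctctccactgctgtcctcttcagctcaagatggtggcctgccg
HADHB: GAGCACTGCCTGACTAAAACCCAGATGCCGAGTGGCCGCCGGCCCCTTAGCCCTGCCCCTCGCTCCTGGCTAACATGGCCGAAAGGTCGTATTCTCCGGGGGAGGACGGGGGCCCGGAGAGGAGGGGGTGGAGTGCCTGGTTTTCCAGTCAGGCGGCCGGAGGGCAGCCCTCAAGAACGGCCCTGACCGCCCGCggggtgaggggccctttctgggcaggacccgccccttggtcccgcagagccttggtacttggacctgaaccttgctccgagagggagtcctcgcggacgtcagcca

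The other enzymes of the mitochondrial cycle covered a wide range of levels. ECHS1, the short-chain enoyl-CoA hydratase, was at 26.1 to 32.5 CPM per kilobase in compound libraries and 31.4 ± 2.12 in Control (SD, n = 3). ACADVL, which starts the cycle for very long chains, was at 20.1 to 28.6 CPM per kilobase in compound libraries and 21.7 ± 1.67 in Control (SD, n = 3). The medium-chain and short-chain dehydrogenases ACADM and ACADS were at 4.499 and 1.39 CPM per kilobase in Control. ACADL, the long-chain dehydrogenase, had 0 to 40 counts per compound library and 8 to 23 per Control library. The peroxisomal enzymes HSD17B4, ACOX3, EHHADH and ACAA1 lay between 2.17 and 5.12 CPM per kilobase in Control.

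PPARs with RXRs bind a direct repeat of AGGTCA with any 1 base between the copies. This repeat was searched on both strands of the RefSeq promoter windows, with no other motif beside it. At least 1 window was held for 28 of the 33 members and for 27305 genes in all, and some genes had several, of which the best match was taken. No member matched 11 or more of the 12 fixed letters, against 0.41% of all genes with a window. ACAA2, the mitochondrial thiolase, was the only member to match 10 or more letters, against 3.63% of all genes with a window. Its window is chr18:49813484-49813783 on the minus strand (GRCh38.p14), and the capitals mark the match, which begins 76 bases before the start. It is shown as the closest match among the members, and a match is a description, not a binding site.
ACAA2: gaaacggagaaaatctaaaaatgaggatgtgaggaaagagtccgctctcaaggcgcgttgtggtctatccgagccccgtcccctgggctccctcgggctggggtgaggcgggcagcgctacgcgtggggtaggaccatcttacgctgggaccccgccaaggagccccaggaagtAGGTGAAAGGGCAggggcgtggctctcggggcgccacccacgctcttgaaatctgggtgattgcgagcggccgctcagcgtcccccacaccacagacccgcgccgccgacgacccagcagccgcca
ACAA2 was at 10.4 to 13.2 CPM per kilobase in compound libraries and 11.9 ± 1.14 in Control (SD, n = 3), and its log2 fold changes against Control ran from -0.14 to 0.01. At 9 or more letters, 8 of the 28 members (28.6%) and 24.5% of all genes with a window matched.

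For each compound against Control, the question was which members changed and by how much. By edgeR's quasi-likelihood test with Benjamini-Hochberg adjustment over 24879 genes, 0 of 32 members passed 0.05 in any of the 6 comparisons, and DESeq2 also called 0 in each. The share of all tested genes that passed was 0.0322% with PFOA, 0.0241% with PFOS, 0.00804% with PFDA, 0.0241% with PFDS, 0.0844% with 8:2 FTS and 0.0322% with 8:2 FTOH. At an unadjusted p under 0.05 the members numbered 3 with PFOA (9.4%, against 10.1% of all genes), 0 with PFOS (against 6.83%), 0 with PFDA (against 8.43%), 0 with PFDS (against 5.58%), 3 with 8:2 FTS (9.4%, against 7.77%) and 2 with 8:2 FTOH (6.2%, against 7.83%). These shares lie close to or below those of all genes.

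The median log2 fold change of the 32 members was -0.02 with PFOA, 0.01 with PFOS, -0.01 with PFDA, -0.01 with PFDS, -0.01 with 8:2 FTS and -0.01 with 8:2 FTOH. Over all tested genes the medians lay between 0.0022 and 0.0092. The members divided about evenly by sign, with 14 to 17 positive values of 32 for each compound. When the mean of the 6 compounds was set against Control, 0 of 32 members passed by edgeR and 0 by DESeq2, against 0.35% of all genes by edgeR, and 2 (6.2%) had an unadjusted p under 0.05, against 9.98% of all genes. Scaled by library size only, 5 had an unadjusted p under 0.05 there, and 0 passed the adjusted threshold. The 6 comparisons share the same Control libraries, so a Control library that happens to be high or low moves all of them the same way. Values of 1 sign for all 6 compounds were common among the members. They were negative for PPARD, HADHA, ECHS1, HSD17B4, EHHADH, PLIN2 and FABP5. They were positive for RXRA, CPT2, ACADVL, ACADM, ACADS, ACAA1, ACOX3 and PDK4. The share of all genes with 1 sign, or with as many libraries outside the Control range, was not counted.

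**Figure D3:**
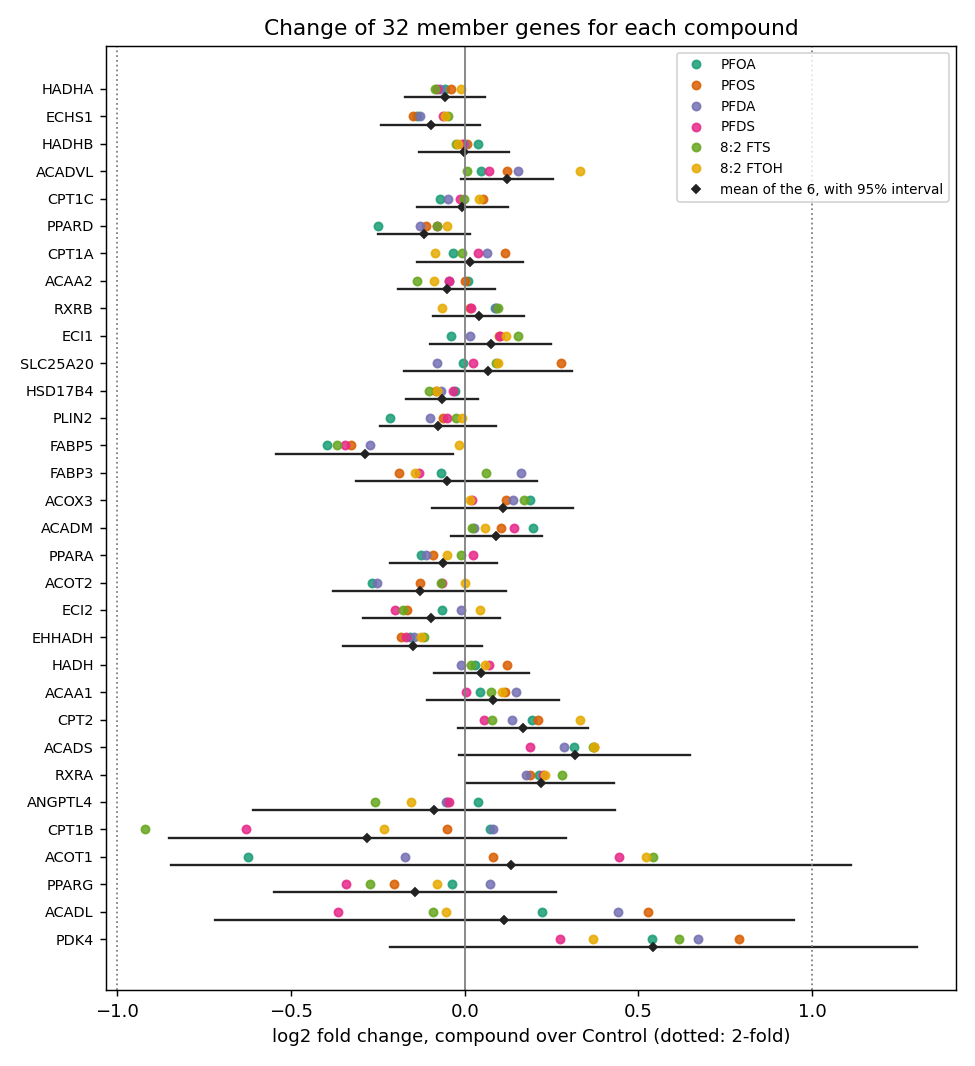
log2 fold change of 32 members against Control, with 1 coloured point per compound and a black diamond with its 95% interval for the mean of the 6 compounds; dotted lines mark 2-fold. Most points lie close to 0, and the intervals are widest for the members lowest in level, such as ACOT1 and PDK4.

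Of the 5 receptors, 0 passed the test for any compound. PPARD (ENSG00000112033; hg38, chromosome 6, 35342558 to 35428191) was at 50.1, 45.4 and 47.2 CPM with PFOA, against 62.5, 54.5 and 52.5 CPM in Control. All 3 PFOA libraries lay below all 3 Control libraries. The log2 fold change was -0.25 (SE 0.089, unadjusted p = 0.00734, adjusted p = 0.319), the smallest unadjusted p among the members for PFOA. With the other compounds PPARD was at 47.4, 54.2 and 55.7 CPM (PFOS), 51.3, 52.5 and 51.4 CPM (PFDA), 50.5, 52.0 and 57.4 CPM (PFDS), 55.1, 49.7 and 55.7 CPM (8:2 FTS) and 57.1, 56.9 and 48.9 CPM (8:2 FTOH). Control replicate 1, at 62.5 CPM, lay above every other library, and 10 of the 18 compound libraries lay below the Control range.

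PPARA (ENSG00000186951; chromosome 22, 46150521 to 46243755) was at 41.5, 52.7 and 50.6 CPM with PFOA, 48.5, 50.6 and 49.7 CPM with PFOS, 52.7, 42.1 and 51.2 CPM with PFDA, 46.8, 52.2 and 61.1 CPM with PFDS, 55.2, 45.9 and 56.0 CPM with 8:2 FTS and 49.98, 54.3 and 47.8 CPM with 8:2 FTOH, against 54.1, 47.003 and 57.3 CPM in Control. Every compound group overlapped Control. Its log2 fold changes ran from -0.13 to 0.02, with SEs of 0.10. PPARG (ENSG00000132170; chromosome 3, 12287368 to 12434356) was at 3.00, 2.09 and 3.29 CPM with PFOA, 2.16, 2.78 and 2.68 CPM with PFOS, 3.20, 3.30 and 2.68 CPM with PFDA, 2.53, 2.81 and 1.67 CPM with PFDS, 2.79, 2.00 and 2.31 CPM with 8:2 FTS and 3.38, 2.33 and 2.59 CPM with 8:2 FTOH, against 3.38, 2.26 and 3.05 CPM in Control. Here too every compound group overlapped Control, and the log2 fold changes ran from -0.34 to 0.07 with SEs of 0.26 to 0.28.

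RXRA (ENSG00000186350; chromosome 9, 134317098 to 134440585), a shared partner of many nuclear receptors, had a positive log2 fold change for all 6 compounds, from 0.18 to 0.28. It was at 17.3, 17.8 and 21.8 CPM with PFOA, 17.5, 20.03 and 19.04 CPM with PFOS, 18.1, 15.2 and 22.2 CPM with PFDA, 17.9, 17.7 and 21.7 CPM with PFDS, 17.3, 19.2 and 23.9 CPM with 8:2 FTS and 21.5, 19.9 and 16.2 CPM with 8:2 FTOH, against 16.97, 16.9 and 15.6 CPM in Control. The lower PFDA and 8:2 FTOH libraries reached into or below the Control range, and 16 of 18 compound libraries lay above it. With the compounds averaged the log2 fold change was 0.22 (SE 0.105, adjusted p = 0.472). RXRB ran from -0.06 to 0.10.

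Of the 5 genes of the carnitine shuttle, 0 passed for any compound. CPT2 (ENSG00000157184; chromosome 1, 53196792 to 53214197), which remakes acyl-CoA inside the mitochondrion, was at 18.9, 19.7 and 23.5 CPM with 8:2 FTOH, against 16.1, 17.01 and 15.9 CPM in Control. The groups did not overlap. The log2 fold change was 0.33 (SE 0.124, adjusted p = 0.461). With the other compounds CPT2 was at 15.9, 19.4 and 20.5 CPM (PFOA), 19.6, 17.7 and 19.3 CPM (PFOS), 16.7, 18.5 and 18.7 CPM (PFDA), 17.1, 15.6 and 18.05 CPM (PFDS) and 17.4, 18.9 and 15.3 CPM (8:2 FTS), with log2 fold changes from 0.05 to 0.21. Of those groups PFOS alone lay wholly above Control. CPT2 shares 11.4% of its exon bases with a gene on the opposite strand.

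CPT1B (ENSG00000205560; chromosome 22, 50568861 to 50578465) was at 1.25, 0.922 and 0.854 CPM with 8:2 FTS, from 26, 12 and 10 counts, against 2.49, 2.18 and 1.19 CPM in Control, from 56, 52 and 25 counts. The highest 8:2 FTS library lay just above the lowest Control library. The log2 fold change was -0.92 (SE 0.411, adjusted p = 0.573), the largest in size of any member against Control. CPT1B was at 2.40, 2.09 and 1.76 CPM with PFOA, 2.75, 1.88 and 0.825 CPM with PFOS, 3.12, 1.80 and 1.29 CPM with PFDA, 0.760, 2.22 and 0.895 CPM with PFDS and 1.98, 1.34 and 1.81 CPM with 8:2 FTOH. Each of these groups overlapped Control.

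SLC25A20 (ENSG00000178537; chromosome 3, 48856926 to 48898904), which carries acyl-carnitines across the inner membrane, was at 10.4, 13.7 and 14.02 CPM with PFOS, against 9.37, 11.7 and 9.99 CPM in Control. The log2 fold change was 0.28 (SE 0.157, adjusted p = 0.792). It was at 10.1, 11.0 and 9.92 CPM with PFOA, 9.44, 8.78 and 11.0 CPM with PFDA, 8.70, 10.9 and 11.7 CPM with PFDS, 9.04, 11.2 and 13.2 CPM with 8:2 FTS and 11.0, 12.04 and 9.70 CPM with 8:2 FTOH. All 6 groups overlapped Control. CPT1A and CPT1C had log2 fold changes between -0.09 and 0.11.

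Of the 11 genes of mitochondrial oxidation, 0 passed for any compound, and ACADVL with 8:2 FTOH had the smallest p of any member in any comparison. ACADVL (ENSG00000072778; chromosome 17, 7217125 to 7225266) was at 122, 138 and 135 CPM with 8:2 FTOH, against 108, 111 and 95.6 CPM in Control. The groups did not overlap. The log2 fold change was 0.33 (SE 0.086, 95% interval 0.16 to 0.51), a ratio of 1.26, with an unadjusted p of 3.75e-04 and an adjusted p of 0.158. With no filter on low counts ACADVL passed, at an adjusted p of 0.042. Over all alternatives its adjusted p ran from 0.042 to 0.543 and its log2 fold change from 0.25 to 0.38. The highest adjusted p, 0.543, came without Control replicate 3 and 8:2 FTOH replicate 3 together, the libraries absent from the authors' normalized table.

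ACADVL was at 119, 97.0 and 108 CPM with PFOA, 121, 114 and 106 CPM with PFOS, 123, 111 and 116 CPM with PFDA, 98.4, 121 and 110.4 CPM with PFDS and 97.3, 119 and 99.9 CPM with 8:2 FTS. These groups overlapped Control, and their log2 fold changes ran from 0.01 to 0.15. The gene shares 49 exon bases with DLG4 on the opposite strand. With 8:2 FTOH, replicate 3, at a mitochondrial share of 6.11%, was at 135 CPM, and replicates 1 and 2, at 3.53% and 3.52%, at 122 and 138 CPM. In Control, replicate 3, at a share of 6.33%, was lowest at 95.6 CPM, and replicates 1 and 2, at 4.13% and 4.37%, were at 108 and 111 CPM. The part of mitochondrial share in ACADVL was not tested.

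ACADM (ENSG00000117054; chromosome 1, 75724431 to 75787575) was at 75.7, 72.0 and 65.7 CPM with PFOA, against 56.6, 62.9 and 66.4 CPM in Control. PFOA replicate 3 lay inside the Control range, and the log2 fold change was 0.20 (SE 0.084, adjusted p = 0.412). With PFDS it was at 73.0, 64.7 and 67.5 CPM, and the log2 fold change stood at 0.14 (SE 0.084, adjusted p = 0.941). ACADM was at 68.4, 67.3 and 63.9 CPM with PFOS, 62.0, 69.4 and 58.6 CPM with PFDA, 60.97, 61.5 and 66.4 CPM with 8:2 FTS and 65.1, 59.9 and 69.3 CPM with 8:2 FTOH, all overlapping Control.

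ACADS (ENSG00000122971; chromosome 12, 120725774 to 120740008) had log2 fold changes of 0.19 to 0.37, positive for all 6 compounds. It was at 5.48, 3.96 and 4.19 CPM with PFOA, 4.94, 4.13 and 4.95 CPM with PFOS, 4.61, 3.83 and 4.72 CPM with PFDA, 3.21, 4.36 and 4.67 CPM with PFDS, 5.14, 4.46 and 4.36 CPM with 8:2 FTS and 5.27, 4.70 and 4.01 CPM with 8:2 FTOH, against 3.38, 3.56 and 3.95 CPM in Control. Of the 18 compound libraries 16 lay above the Control range, and the PFDA and PFDS groups overlapped it. With the compounds averaged the log2 fold change was 0.32 (SE 0.165, adjusted p = 0.538). ECI1, an enoyl-CoA isomerase, ran from -0.04 to 0.15. Of the 18 compound libraries 12 lay above its narrow Control range of 24.98 to 25.98 CPM and 3 below it. HADHA ran from -0.09 to -0.01, HADHB from -0.02 to 0.04 and ECHS1 from -0.15 to -0.05. HADH, the short-chain hydroxyacyl-CoA dehydrogenase, ran from -0.01 to 0.12, and ECI2, a second isomerase, from -0.20 to 0.04. ECI2 shares 27.1% of its exon bases with TEX56P on the opposite strand. ACADL ran from -0.36 to 0.53 with SEs of 0.53 to 0.57.

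Of the 4 peroxisomal enzymes, 0 passed for any compound. HSD17B4, the D-bifunctional protein, had log2 fold changes from -0.10 to -0.03 and SEs of 0.067 to 0.068, the smallest of the members. EHHADH, the L-bifunctional protein and a PPARA target in liver, ran from -0.18 to -0.12, negative for all 6 compounds, with a lowest adjusted p of 0.745. ACOX3, an oxidase of branched chains, ran from 0.01 to 0.19, and ACAA1, a thiolase, from 0.00 to 0.15. ACAA1 shares 19.7% of its exon bases with DLEC1 on the opposite strand.

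Of the 3 genes grouped here as PPAR targets, PDK4, ANGPTL4 and PLIN2, 0 passed for any compound. Members of other groups, such as EHHADH, can be PPAR targets too. PDK4, a kinase that turns glucose oxidation down and a PPAR target in muscle and liver, was at 0.450 to 1.81 CPM in compound libraries, from 6 to 56 counts. In Control PDK4 was at 0.355, 0.712 and 0.761 CPM, from 8, 17 and 16 counts. Its log2 fold changes ran from 0.27 to 0.79, positive for all 6 compounds, with SEs of 0.47 to 0.50 and a lowest adjusted p of 0.733. ANGPTL4, a secreted inhibitor of lipoprotein lipase, ran from -0.26 to 0.04, with SEs of 0.34 to 0.36. PLIN2, which coats lipid droplets, was at 20.6 to 27.3 CPM in compound libraries and 25.1 ± 1.02 CPM in Control (SD, n = 3), with log2 fold changes from -0.21 to -0.01.

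FABP5 (ENSG00000164687; chromosome 8, 81280536 to 81284777), a fatty acid carrier that can deliver ligands to PPARD, had the smallest p of the members with the compounds averaged. It was at 7.37, 8.44 and 6.09 CPM with PFOA, 7.78, 6.45 and 8.45 CPM with PFOS, 7.30, 8.33 and 8.08 CPM with PFDA, 6.16, 8.80 and 7.47 CPM with PFDS, 6.39, 8.53 and 7.35 CPM with 8:2 FTS and 9.39, 8.05 and 11.4 CPM with 8:2 FTOH, against 9.11, 9.80 and 9.66 CPM in Control. Every library of the first 5 groups lay below every Control library, and the 8:2 FTOH group overlapped Control. The log2 fold changes were -0.40 with PFOA, -0.33 with PFOS, -0.27 with PFDA, -0.34 with PFDS, -0.37 with 8:2 FTS and -0.02 with 8:2 FTOH, with SEs of 0.17. Averaged over the compounds the value was -0.29 (SE 0.126, unadjusted p = 0.0276, adjusted p = 0.415). The table also holds 15 FABP5 pseudogenes with 1526 counts in all libraries, against 3054 for FABP5, and reads that map to several places were not counted.

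FABP3, the heart form, was at 5.66 to 8.71 CPM in compound libraries and 6.96 ± 0.150 CPM in Control (SD, n = 3), with log2 fold changes from -0.19 to 0.16. FABP7 had 3 counts in all, in PFOA replicates 1 and 2, and was at 0 in 19 of 21 libraries. A count of 0 allows up to 0.391 CPM in the shallowest library and 0.0986 CPM in the deepest, counting error only. The acyl-CoA thioesterases ACOT1 (cytosol) and ACOT2 (mitochondria) are near copies. In the GENCODE transcripts, 43.4% of the 75-base windows of ACOT1 also occur in ACOT2, so counts of both are uncertain. ACOT2 (ENSG00000119673; chromosome 14, 73567620 to 73575658) was at 6.49, 6.53 and 7.47 CPM with PFDA, against 8.88, 8.09 and 7.52 CPM in Control, with a log2 fold change at -0.25 (SE 0.165, adjusted p = 0.703). It was at 7.11, 6.49 and 6.76 CPM with PFOA, 7.27, 8.55 and 6.67 CPM with PFOS, 7.18, 7.62 and 8.48 CPM with PFDS, 8.70, 6.69 and 7.86 CPM with 8:2 FTS and 8.07, 9.16 and 6.85 CPM with 8:2 FTOH. The PFOA and PFDA groups lay below Control and the other 4 overlapped it. ACOT1 had 0 to 28 counts per compound library and 10 to 14 per Control library, with log2 fold changes from -0.62 to 0.54 and SEs of 0.62 to 0.69.

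**Figure D4:**
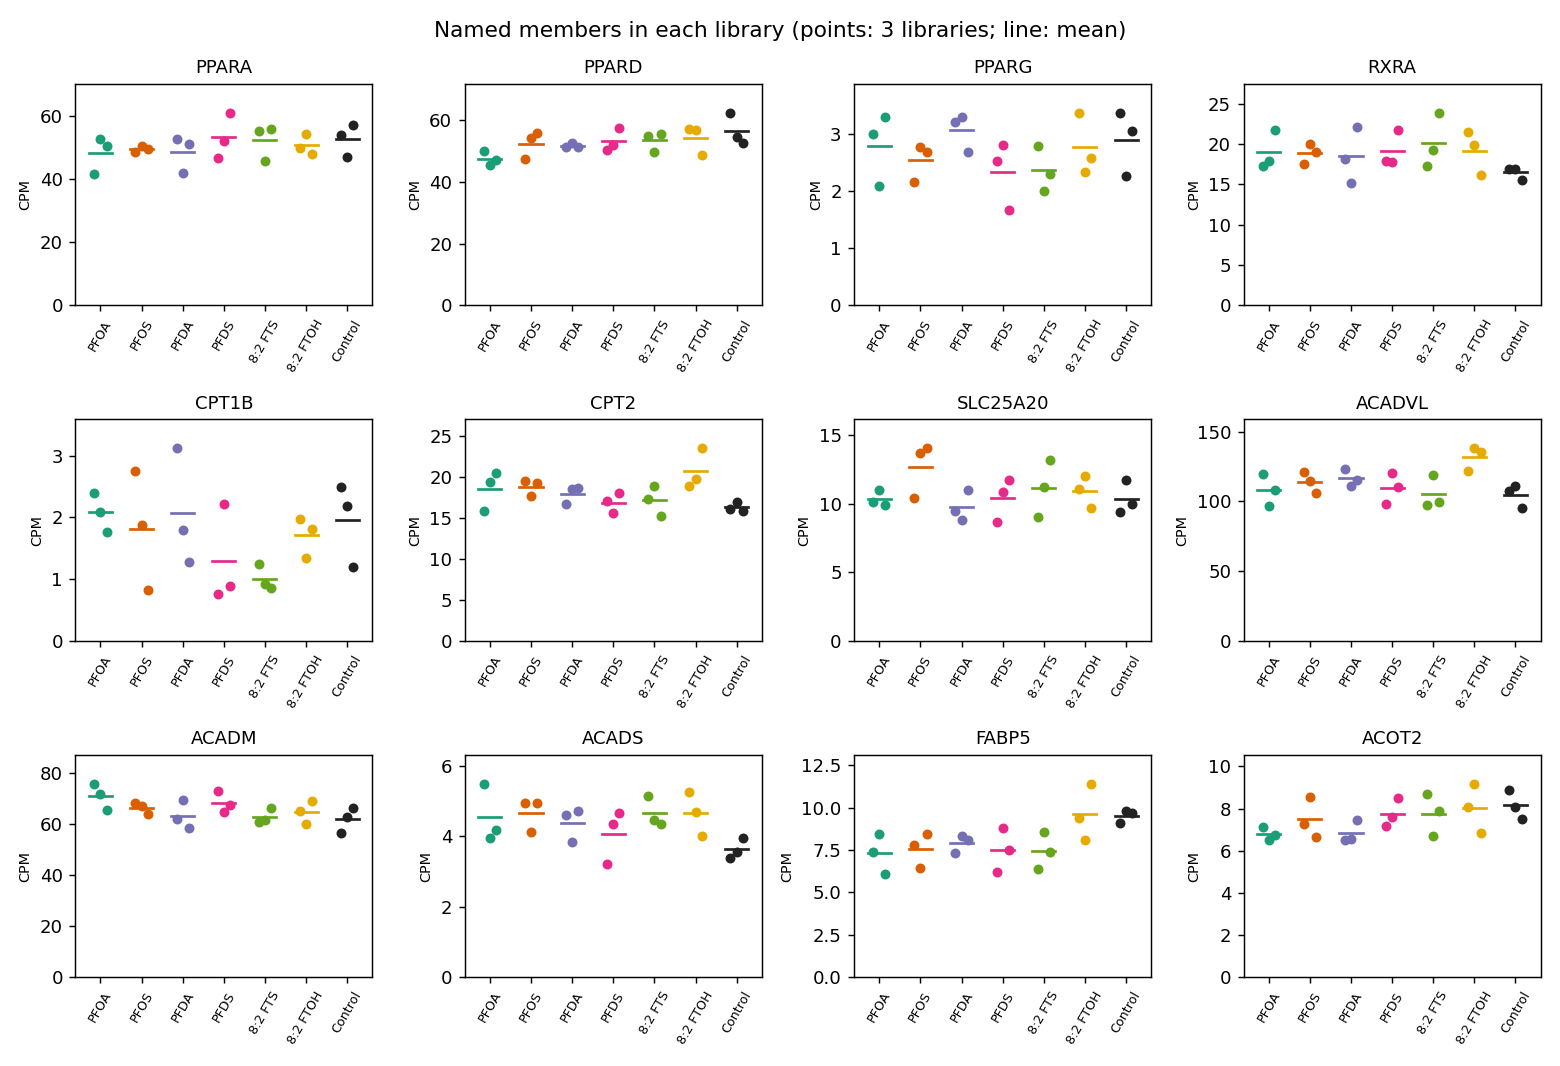
CPM of 12 members in every library, with 3 points per group and a line at the group mean, compounds left of Control, each panel from 0. ACADVL with 8:2 FTOH lies above Control, FABP5 lies below Control with every compound but 8:2 FTOH, and most other groups overlap.

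Counts of members whose 3 libraries lay wholly on one side of Control were set beside those of all genes. Above Control there were 3 of 32 with PFOA (9.4%, against 7.45% of all genes), 3 with PFOS (9.4%, against 6.62%), 2 with PFDA (6.2%, against 7.92%), 1 with PFDS (3.1%, against 3.72%), 5 with 8:2 FTS (15.6%, against 6.64%) and 4 with 8:2 FTOH (12.5%, against 5.95%). Below Control there were 5 with PFOA (15.6%, against 8.46%), 2 with PFOS (6.2%, against 7.41%), 3 with PFDA (9.4%, against 7.85%), 1 with PFDS (3.1%, against 4.53%), 1 with 8:2 FTS (3.1%, against 7.17%) and 1 with 8:2 FTOH (3.1%, against 6.98%). Each count is of at most 5 genes. RXRA, RXRB, ACADS, ECI1 and ACOT1 were those above with 8:2 FTS, and PPARD, PLIN2, FABP5, ACOT1 and ACOT2 those below with PFOA.

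The 95% intervals say what size of change could be excluded given the spread among these libraries, which could be technical. They are approximate and are not adjusted for the number of members or comparisons. In all 6 comparisons with Control, 28 of the 32 members had an interval within 2-fold and 22 had one within 1.5-fold, against 59.5% and 42.3% of all tested genes. Members had narrower intervals than all tested genes, so these shares do not compare sizes of change. With PFOA, for example, the median distance from estimate to interval end was 0.250 for members and 0.419 for all tested genes. The 22 include PPARA, PPARD, RXRA, RXRB, CPT1A, CPT1C, CPT2, HADHA and EHHADH. Among the 28, the lowest bound was a ratio of 0.508 for ANGPTL4 and the highest a ratio of 1.76 for ACADS. For ACADL, ACOT1, CPT1B and PDK4 at least 1 interval reached 2-fold, so a 2-fold change of these 4 was not excluded. Their counts were at most 85 in any library.

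**Figure D5:**
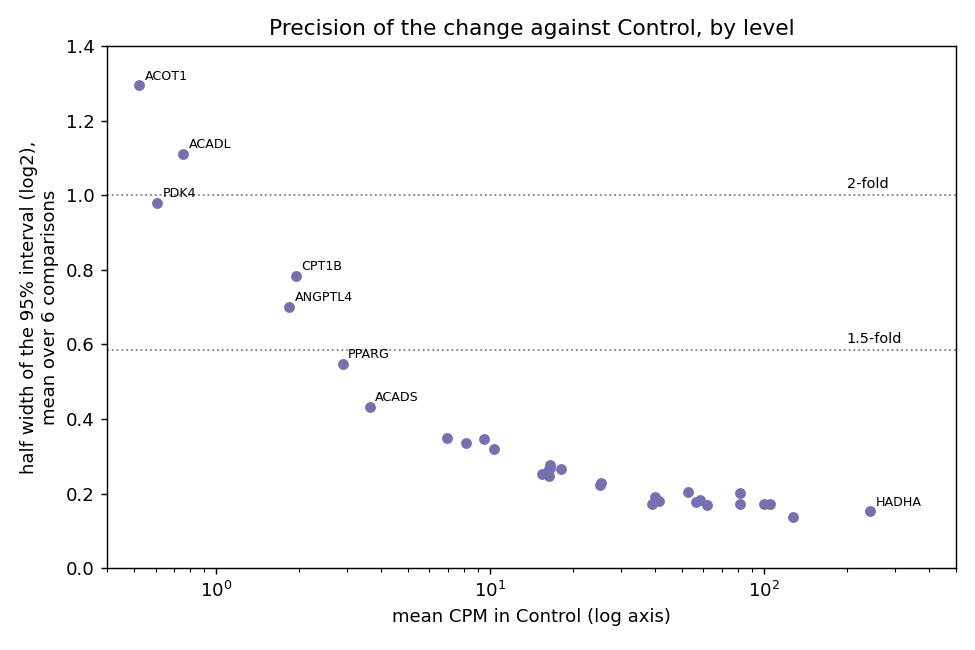
Distance from the estimate to the end of the 95% interval of the log2 fold change, averaged over the 6 comparisons with Control, against the mean CPM in Control on a log axis, with 1 point per member and dotted lines at 1.5-fold and 2-fold. That distance was largest for ACOT1 at 1.29 and smallest for HSD17B4 at 0.136, with HADHA, the highest in level, at 0.153.

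The compounds were also compared with each other at the same dose and time, in 8 pairs that differ by chain length, head group or fluorination, and 0 of 32 members passed by edgeR and 0 by DESeq2 in each pair. For chain length, 0 members had an unadjusted p under 0.05 for PFDA against PFOA (0.0% of all genes passed the adjusted threshold and 2.93% the unadjusted one) or for PFDS against PFOS (0.00402% and 4.37%). For the acid group, 0 did for PFOS against PFOA (0.0% and 4.9%) or for PFDS against PFDA (0.0% and 5.59%). For 8:2 FTS, 2 members did against 8:2 FTOH (0.0% and 3.26%), 0 against PFDS (0.0% and 4.1%) and 1 against PFOS (0.0% and 2.86%). For 8:2 FTOH against PFOA, 3 did (0.00402% and 6.52%).

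Members whose libraries lay wholly above or below those of the other compound numbered 0 to 3 of 32 in each direction. For PFDA against PFOA there were 3 above (9.4%, against 4.81% of all genes) and 0 below (against 5.16%), and for PFDS against PFOS 0 above (against 3.94%) and 1 below (3.1%, against 4.81%). For PFOS against PFOA there were 2 above (6.2%, against 6.51%) and 0 below (against 6.35%), and for PFDS against PFDA 0 above (against 4.2%) and 3 below (9.4%, against 5.23%). For 8:2 FTS there were 1 above 8:2 FTOH (3.1%, against 4.23%) and 3 below it (9.4%, against 4.2%), 1 above PFDS (3.1%, against 4.17%) and 0 below it (against 3.67%), and 1 above PFOS (3.1%, against 4.55%) and 1 below it (3.1%, against 4.92%). For 8:2 FTOH against PFOA there were 3 above (9.4%, against 5.44%) and 1 below (3.1%, against 6.1%). Each count of 3 was above the share of all genes, and rests on 3 genes. ACADVL was among those above with 8:2 FTOH against PFOA and below with 8:2 FTS against 8:2 FTOH, and PPARD was among those above with PFDA against PFOA.

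ACADVL was the member with the smallest p in the comparisons with 8:2 FTOH. It averaged 105 ± 11.8 CPM with 8:2 FTS and 132 ± 8.67 CPM with 8:2 FTOH (SD, n = 3 each), a log2 difference of -0.32 (interval -0.50 to -0.15, adjusted p = 0.957). For 8:2 FTOH against PFOA the log2 difference of ACADVL was 0.28 (interval 0.11 to 0.46, adjusted p = 0.575), that of FABP5 0.38 (interval 0.01 to 0.74) and that of PPARD 0.20 (interval 0.02 to 0.38). The remaining ones were CPT2 for 8:2 FTS against 8:2 FTOH, at -0.25 (interval -0.51 to -0.00), and CPT1B for 8:2 FTS against PFOS, at -0.87 (interval -1.71 to -0.03). Intervals lay within 2-fold for 28 or 29 of 32 members in each pair.

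A further 71 genes of fatty acid handling, PPAR co-regulators and ketone metabolism were counted beside the members, and 61 of them were tested. Those without enough counts included PPARGC1A, the coactivator of mitochondrial biogenesis, FABP1, FABP4, CYP4A11 and FGF21, all known as PPAR targets or partners in liver or fat. By edgeR 0 of 61 passed in any of the 15 comparisons, and DESeq2 called 1 with 8:2 FTOH and 1 with the compounds averaged. At an unadjusted p under 0.05 there were 7 with PFOA (11.5%, against 10.1% of all genes), 5 with PFOS (8.2%, against 6.83%), 6 with PFDA (9.8%, against 8.43%), 7 with PFDS (11.5%, against 5.58%), 7 with 8:2 FTS (11.5%, against 7.77%) and 4 with 8:2 FTOH (6.6%, against 7.83%). With the compounds averaged there were 10 (16.4%, against 9.98%), of which 3 were positive and 7 negative. The shares with PFDS and with the compounds averaged lay furthest above those of all genes, and these differences were not tested.

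OXCT1, which lets cells use ketone bodies, had the smallest p of these with the compounds averaged. It was at 111, 115 and 103 CPM with PFOA, 99.2, 107 and 103 CPM with PFOS, 93.8, 95.02 and 94.2 CPM with PFDA, 92.1, 98.4 and 113 CPM with PFDS, 97.5, 93.9 and 96.4 CPM with 8:2 FTS and 101, 88.2 and 91.9 CPM with 8:2 FTOH, against 109.9, 116 and 116 CPM in Control. The PFOA and PFDS groups overlapped Control and the other 4 lay below it. Its log2 fold change was -0.20 (SE 0.056, adjusted p = 0.126), and it was the gene DESeq2 called there.

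DBI, the acyl-CoA binding protein, was at 43.7, 40.4 and 41.7 CPM with PFOA, 40.7, 38.2 and 39.3 CPM with PFOS, 40.1, 64.9 and 34.6 CPM with PFDA, 33.02, 36.01 and 39.6 CPM with PFDS, 38.4, 35.98 and 33.9 CPM with 8:2 FTS and 35.7, 33.2 and 29.1 CPM with 8:2 FTOH, against 42.2, 53.9 and 50.9 CPM in Control. PFDA replicate 2 was the highest library of all, and the PFOA and PFDA groups overlapped Control. With the compounds averaged the log2 fold change was -0.35 (SE 0.111, adjusted p = 0.239), and with 8:2 FTOH, where DESeq2 called it, -0.58 (SE 0.155, adjusted p = 0.236 by edgeR). ACSL3, a long-chain acyl-CoA synthetase, was at 186.4, 196.6 and 183.4 CPM with PFOA, 178.5, 181.1 and 188.0 CPM with PFOS, 183.6, 188.5 and 190.3 CPM with PFDA, 190.3, 189.0 and 207.3 CPM with PFDS, 190.7, 171.4 and 174.9 CPM with 8:2 FTS and 177.0, 175.9 and 191.5 CPM with 8:2 FTOH, against 197.5, 199.6 and 220.1 CPM in Control. PFDS replicate 3 lay inside the Control range and every other compound library below it. Averaged over the compounds, ACSL3 was at 186 CPM, against 206 CPM in Control, with a log2 fold change at -0.15 (SE 0.052, adjusted p = 0.256).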

How the data were processed

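RNA was measured in 21 libraries of 7 groups of 3, grouped by their treatment labels. Per the submitters' processing notes, reads were checked with FastQC and MultiQC, aligned with HISAT2 to hg38, handled with SAMtools and counted with featureCounts, and DESeq2 is named there too. Per the file headers, the deposited raw counts came from featureCounts 2.0.1 without a strand option, and reads mapping to several places or overlapping several genes were not counted. The annotation release is not given in the sources used here. The exon length per gene, from the authors' same file, was used for CPM per kilobase. The authors' normalized table, with 19 of the libraries, was not used.

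Genes were filtered with filterByExpr, scaled with TMM and fitted over all libraries with edgeR 4.0.16 (glmQLFit with robust dispersion, glmQLFTest; limma 3.58.1, R 4.3.3). The biological coefficient of variation from edgeR was 0.112. P-values were adjusted by Benjamini-Hochberg over 24879 genes within each of 15 comparisons, at 0.05. SEs and 95% intervals were derived from the quasi-likelihood F and are approximate. CPM use TMM-scaled totals. Totals ran from 7680024 to 30429746. The steps were tested on simulated data.

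Values in every library are given for the 3 members with the smallest unadjusted p in each comparison with Control and in the averaged one, for any past 0.05 and for the PPAR genes, and likewise the 3 other pathway genes of smallest p in the averaged one. PDK4, HADHA, HADHB, ACAA2 and other members with ranges were chosen for their role or level. The members and lists were chosen with earlier results of these data known.

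Alternatives were DESeq2 size factors, library size only, no filter, a stricter filter (mean of 1 CPM and 10 counts in 3 libraries), the DESeq2 1.42.0 test, only the groups compared, a replicate term, and leaving out each library or Control replicate 3 and 8:2 FTOH replicate 3 together. DESeq2 was first run with its independent filtering at the default of 0.1 and then set to 0.05, the call threshold, after its counts over all genes had been seen to differ from an earlier account of these data. Both settings are given. Promoter windows are from RefSeq (GRCh38.p14). Tables and figures used Python 3.11.15, pandas 2.3.3 and matplotlib 3.10.9.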

Additional observations from a re-analysis of the deposited data

How the results depend on the processing

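Over all alternatives, 445 counts of members or other pathway genes called stayed as they were and 22 moved, and of the log2 fold changes of named members 356 kept their direction and side of the threshold, 1 passed the threshold and 0 reversed. Among members, the count moved from 0 only for 8:2 FTOH with no filter, to 1 (ACADVL, adjusted p = 0.042). Of the other pathway genes, 0 passed in the reported tests. With no filter 1 did for PFOA, 2 for PFDS, 1 for 8:2 FTS, 1 for 8:2 FTOH and 2 for the averaged compounds (TXNIP or DBI). DESeq2 called 1 for 8:2 FTOH (DBI) and 1 for the averaged compounds (OXCT1), under filtering at 0.05 and at 0.1, an alternative chosen after seeing the data. That setting moved the DESeq2 count over all genes for PFOA from 75 at 0.1 to 128 at 0.05, for PFDA from 12 to 23, and called 0 members either way. Over all genes edgeR called 8 with PFOA against 128 by DESeq2 at 0.05, 6 against 19 with PFOS, 2 against 23 with PFDA, 6 against 34 with PFDS, 21 against 49 with 8:2 FTS, 8 against 59 with 8:2 FTOH and 87 against 196 for the averaged compounds. The fit of only the groups compared called 1 for 8:2 FTOH (DBI). Leaving out 1 library gave 0 to 1 other pathway genes, with 1 without Control replicate 3 for PFOA, PFDS, 8:2 FTS and the averaged compounds (TXNIP), without PFDA replicate 2 (DBI) and without PFDS replicate 3 (OXCT1), and 0 members in every case. Without Control replicate 3 and 8:2 FTOH replicate 3 together, 1 passed for PFOA, PFOS, PFDS, 8:2 FTS and the averaged compounds (TXNIP). In the reported edgeR tests TXNIP had log2 fold changes from 0.17 to 0.46 against Control, positive for all 6 compounds, with a lowest adjusted p of 0.411. The causes were not tested. Scaling by library size only put the median log2 fold change of all genes at 0.0274 to 0.0775 and that of the members at 0.0138 to 0.0601, positive for every compound. It left 4 members at an unadjusted p under 0.05 with PFOA, 2 with PFOS and 5 with the compounds averaged, and 0 past the adjusted threshold. A mean of at least 1 CPM counts 29 members as expressed, against 32 by filterByExpr.

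Replicate numbers gave no consistent pairing of the libraries across groups. Deviations from the group means had a mean correlation of 0.001 for the same number and 0 for other numbers. Deviations within a group sum to 0, so the second value largely follows from the first and is no separate reference. Of 18 same-numbered pairs with Control, 7 had a correlation over 0.1 (range -0.224 to 0.367), and 8 of 21 libraries correlated best with their own number. A batch shared by only some libraries was not tested. With the replicate block 0 members were called in every comparison. For ACADL, ACOT1, CPT1B and PDK4, with at most 85 counts in any library, 2-fold changes were not excluded.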
